A study of Mus musculus with 8 samples.

Results

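Pluripotency network genes encode the transcription factors, receptors and markers by which mouse embryonic stem cells hold their undifferentiated state, and 37 of them are described here by how much 5-hydroxymethylcytosine (5hmC) their DNA carried. The 37 were taken by gene symbol from a gene table of GRCm38.p6 that holds 49980 genes, of which 21900 are protein-coding. The cells were a mouse embryonic stem cell line without functional TET1, TET2 and TET3, into which a transposon had placed the catalytic domain of mouse TET3 under doxycycline control, linked to the red fluorescent reporter mCherry. This genotype and a medium with 50 µg/ml ascorbate were common to all groups. Untreated cells (0 h) gave 3 libraries, named A to C. Doxycycline at 1 µM was given for 6 h to cells of another 2 libraries, A and B, and for 12 h to cells of the last 3, again A to C. The domain came from a transgene in one line and lacked the rest of the TET3 protein, and the labels do not say whether libraries of a time came from separate cultures, so the spread between them may be technical. CpG calls carry no RNA, so neither the loss of the TET genes nor the expression of pluripotency genes could be checked in these files.

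In mouse embryonic stem cells OCT4, SOX2 and NANOG form the core of the network and bind the enhancers of one another. A wider set of naive factors, among them the nuclear receptor ESRRB and the Krüppel-like factors KLF2, KLF4 and KLF5, is kept active by leukaemia inhibitory factor (LIF) through STAT3 and by the lifting of repression by TCF7L1. TET enzymes oxidise 5-methylcytosine to 5hmC. Promoters rich in CpGs are mostly unmethylated, while gene bodies of mammalian genomes are mostly methylated.

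In the assay, APOBEC-coupled epigenetic sequencing, a glucose placed on 5hmC shields it from an APOBEC enzyme that deaminates cytosine and 5-methylcytosine. A level is the percentage of CpG calls that stayed undeaminated, and so counts 5hmC plus the background of the assay. The libraries held between 75023 and 485941 CpG calls, and their levels averaged 1.13% ± 0.199 at 0 h (SD, n = 3), 6.42% ± 0.212 at 6 h (n = 2) and 24.1% ± 2.36 at 12 h (n = 3). The gene bodies of the 37 members, from annotated start to annotated end, drew 2323 calls on 798 reads at 2147 different cytosines, and 86.3% of these calls lay at a position called once over the 8 libraries. Single CpGs therefore cannot be followed over time, and calls were pooled over genes. The 5 best covered genes held 53.6% of the body calls and the best covered 8 held 65.6%. Of the members, 35 had a body call in some library, 32 had one at 12 h and 25 had at least 10 at 12 h. Dppa5a and Utf1, genes of little over 1 kb, had none.

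Where the calls fell in promoters can be read from the sequence. RefSeq promoter windows of GRCm38.p6, from 250 bases before to 50 after a start, were at hand for 27 of the 37 genes (35 windows), and 5 of these windows held a call. The 4 windows with the most calls are printed because they show how dense in CpGs the called start regions of the network were. They belong to Gbx2 (chr1:89931127-89931426, minus strand, 27 CpGs), a homeobox factor downstream of STAT3, to Foxd3 (chr4:99656049-99656348, plus strand, 25 CpGs), a forkhead factor, to Nr0b1 (chrX:86191525-86191824, plus strand, 14 CpGs), the nuclear receptor DAX1, and to Sall1 (chr8:89043463-89043762, minus strand, 27 CpGs), a zinc finger factor. Each is given 5′ to 3′ along its gene, and capitals mark the CpGs that were called at least once in any library.
Gbx2: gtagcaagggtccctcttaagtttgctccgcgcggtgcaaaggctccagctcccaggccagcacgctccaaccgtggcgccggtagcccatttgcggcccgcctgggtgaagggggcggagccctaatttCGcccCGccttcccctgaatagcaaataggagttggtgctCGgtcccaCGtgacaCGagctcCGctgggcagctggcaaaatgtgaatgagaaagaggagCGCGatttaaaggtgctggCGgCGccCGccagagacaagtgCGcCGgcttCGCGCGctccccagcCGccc
Foxd3: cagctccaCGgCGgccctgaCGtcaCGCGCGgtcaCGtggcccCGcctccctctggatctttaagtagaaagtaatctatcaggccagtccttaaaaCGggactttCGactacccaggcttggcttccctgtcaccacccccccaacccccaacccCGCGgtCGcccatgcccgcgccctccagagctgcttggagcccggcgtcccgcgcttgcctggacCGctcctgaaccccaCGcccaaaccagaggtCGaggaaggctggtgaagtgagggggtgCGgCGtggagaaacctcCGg
Nr0b1: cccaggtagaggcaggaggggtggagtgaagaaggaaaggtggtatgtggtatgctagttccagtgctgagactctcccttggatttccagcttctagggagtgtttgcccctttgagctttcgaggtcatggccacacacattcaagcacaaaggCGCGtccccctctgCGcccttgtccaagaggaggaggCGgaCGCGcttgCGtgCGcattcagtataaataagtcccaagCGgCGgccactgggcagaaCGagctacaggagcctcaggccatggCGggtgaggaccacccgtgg
Sall1: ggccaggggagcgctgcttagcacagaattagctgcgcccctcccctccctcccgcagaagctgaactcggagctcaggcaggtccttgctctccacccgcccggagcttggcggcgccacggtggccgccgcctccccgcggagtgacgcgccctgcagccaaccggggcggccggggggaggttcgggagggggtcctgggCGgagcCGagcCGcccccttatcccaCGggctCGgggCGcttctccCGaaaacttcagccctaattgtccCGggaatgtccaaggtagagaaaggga

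In the Gbx2 window 0 of 23 calls were undeaminated at 12 h, all on 2 reads of replicate A, and 0 of 11 on 1 read at 6 h. In the Foxd3 window the counts were 0 of 15 at 12 h, on 2 reads of replicate A, and 0 of 6 on 1 read at 6 h. All 12 h calls of both windows were thus deaminated while 12 h replicate A as a whole stood at 22.3% undeaminated. Capitals also include CpGs called only at another time. In Foxd3, 19 CpGs are in capitals and 12 h gave 15 calls. Counts of 0 allow up to 13.0% for Gbx2 and 20.0% for Foxd3 at 12 h (3 counts of the total, counting error only). The Nr0b1 window had 0 of 12 calls undeaminated on 1 read at 0 h, which allows up to 25.0%. The Sall1 window had 2 of 8 on 1 read of the untreated replicate A, so undeaminated calls also occurred without doxycycline. Windows of the members held a median of 15 CpGs, against 7 over all 32851 windows. Over all windows the 12 h level was 28.9% with 0 to 4 CpGs, 22.7% with 5 to 9, 6.88% with 10 to 19, 2.80% with 20 to 29 and 2.82% with 30 or more. The 38 calls of members at 12 h all lay in the class of 20 to 29 CpGs, and 0 were undeaminated.

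Pooled over all members, undeaminated body calls numbered 3 among 451 at 0 h, 42 among 561 at 6 h and 289 among 1311 at 12 h. Per library the 0 h levels were 0.847, 0.971 and 0% in A, B and C, the 6 h levels 10.0 and 6.57% in A and B, and the 12 h levels 21.2, 23.4 and 21.1% in A, B and C. The 3 times did not overlap. Means were 0.606% ± 0.529 (SD, n = 3), 8.28% ± 2.43 (n = 2) and 21.9% ± 1.30 (n = 3), where bodies of all protein-coding genes stood at 1.14% ± 0.173, 6.42% ± 0.178 and 24.2% ± 2.27. At 12 h the members minus their own libraries came to -2.26 ± 3.04 points, within the spread. No p is given for any pooled level, because the members were chosen with results of these data known. Within each of the 3 sequencing runs, with the calls of all libraries of a time summed, the 12 h level was again above the 0 h level: 25.0% at 12 h against 0% at 0 h in run 52, 22.0% against 1.49% in run 53 and 21.5% against 0% in run 54.

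**Figure D1:**
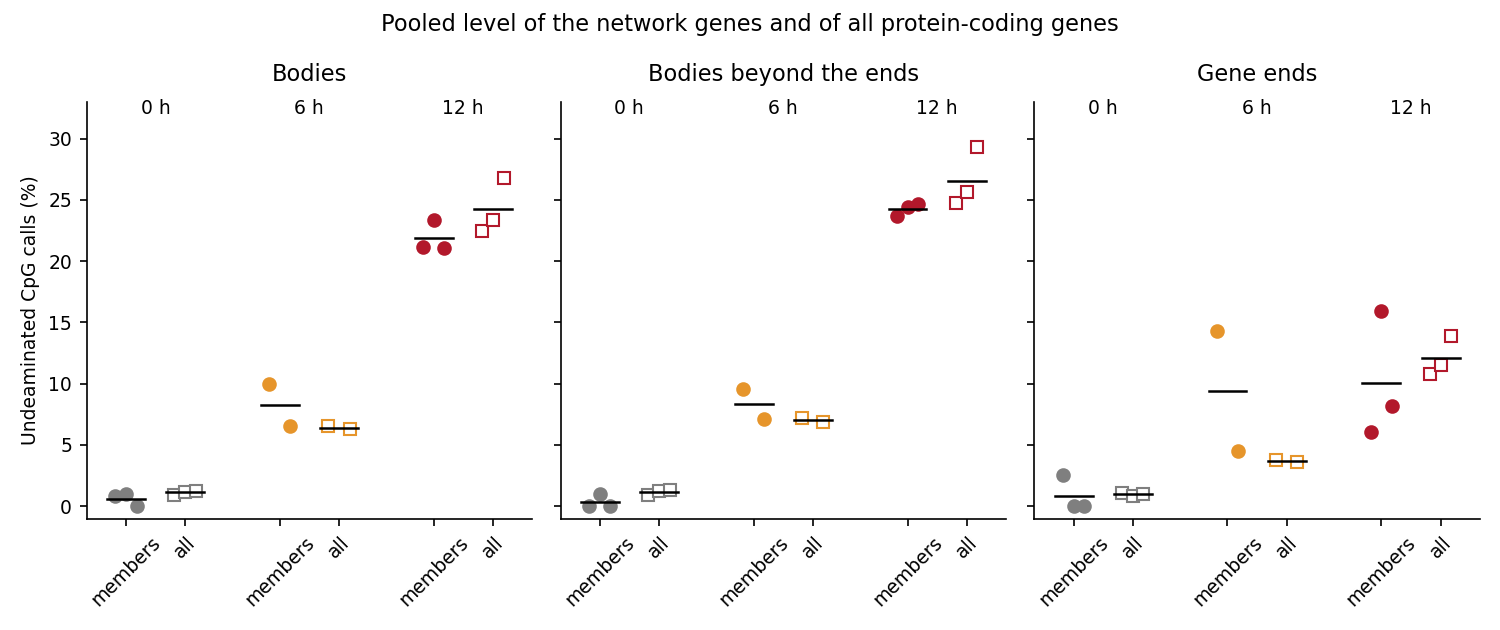
Undeaminated CpG calls (%) pooled over the network genes (filled circles) and over all protein-coding genes (open squares) at 0, 6 and 12 h, in gene bodies, in bodies beyond 1 kb of either end and within 1 kb of an end, with one point per library and a bar at the mean. Beyond the ends the members averaged 24.3% at 12 h against 26.6% for all genes, and at the ends 10.1% against 12.1%.

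The ends of the network genes were lower than their bodies at 12 h. Within 1 kb of either annotated end, members had 2 undeaminated calls among 123 at 0 h, 5 among 80 at 6 h and 35 among 331 at 12 h. The 12 h libraries A, B and C stood at 6.06, 15.9 and 8.20%, a mean of 10.1% ± 5.20 against 12.1% ± 1.60 at the ends of all protein-coding genes. Bodies beyond the ends stood at 23.7, 24.4 and 24.7% in the same libraries, above all 3 end levels, with a mean of 24.3% ± 0.515 against 26.6% ± 2.40 for all genes. One gene weighed on the ends: Zfp42, which encodes the stem cell marker REX1, gave 12 of the 35 undeaminated calls on 2 reads, and without it the ends came to 23 of 315 and a mean of 6.61% ± 3.22.

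The strand was known for 27 members, and the side of the start could be told from the far end in these. Within 1 kb of the start, 2 of 74 calls were undeaminated at 0 h, 0 of 53 at 6 h (which allows up to 5.66%), and 12 h gave 7 of 212, on 31 reads. The 12 h mean over libraries was 3.29% ± 4.23 at the starts of members and 8.05% ± 1.51 at the starts of all 17492 protein-coding genes with a strand, and the ranges over libraries overlapped (0 to 8.06% and 6.92 to 9.76%). Jarid2 gave 3 of the 7 undeaminated calls on 1 read. Without Jarid2, left out after its count was seen, the starts had 4 of 205, a mean of 1.81% ± 1.82 and a range of 0 to 3.64%. Without Lifr instead, the range was 0 to 6.90%. The overlap thus hung on a few calls, and leaving out a high gene lowers the members only. The difference from all genes was not tested. At the far ends 17 of 47 calls were undeaminated at 12 h, on 14 reads, or 5 of 31 without Zfp42. The mean was 35.3% ± 9.43, or 10.7% ± 12.9 without Zfp42, against 24.8% ± 2.76 at the far ends of all these genes. Calls at the starts of members lay on reads with 12.0 CpG calls on average and those at the far ends on reads with 5.43. For all genes with a strand these averages were 10.8 and 4.85.

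At single starts the 12 h counts were 2 of 66 in Gbx2, 0 of 39 in Mycn, which encodes N-MYC, and 0 of 33 in Foxd3. They were 0 of 21 in Fgf4, a growth factor that primes cells for differentiation, and 0 of 19 in Sox2. In this order the calls lay on 7, 4, 3, 2 and 2 reads, and calls on 1 read are not independent. Jarid2, which encodes a cofactor of Polycomb repressive complex 2, had 3 of 7 on 1 read. Of 14 members with a start call at 12 h, 4 had an undeaminated one. By distance to the nearest start of any gene in the promoter table, body calls of members at 12 h were undeaminated at 3 of 156 under 1 kb, 33 of 203 from 1 to 5 kb, 83 of 314 from 5 to 20 kb and 166 of 625 at 20 kb or more. Library means were 2.17, 15.6, 29.3 and 26.1% over these classes, against 8.58, 25.7, 27.3 and 26.6% in all protein-coding bodies. From 1 to 5 kb the members' libraries (9.88 to 23.8%) lay under those of all genes (24.0 to 28.6%), a difference that was not tested. Calls there sat on reads with 5.49 CpGs on average in members and 4.21 in all genes. Under 1 kb these averages were 13.4 and 10.9.

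**Figure D2:**
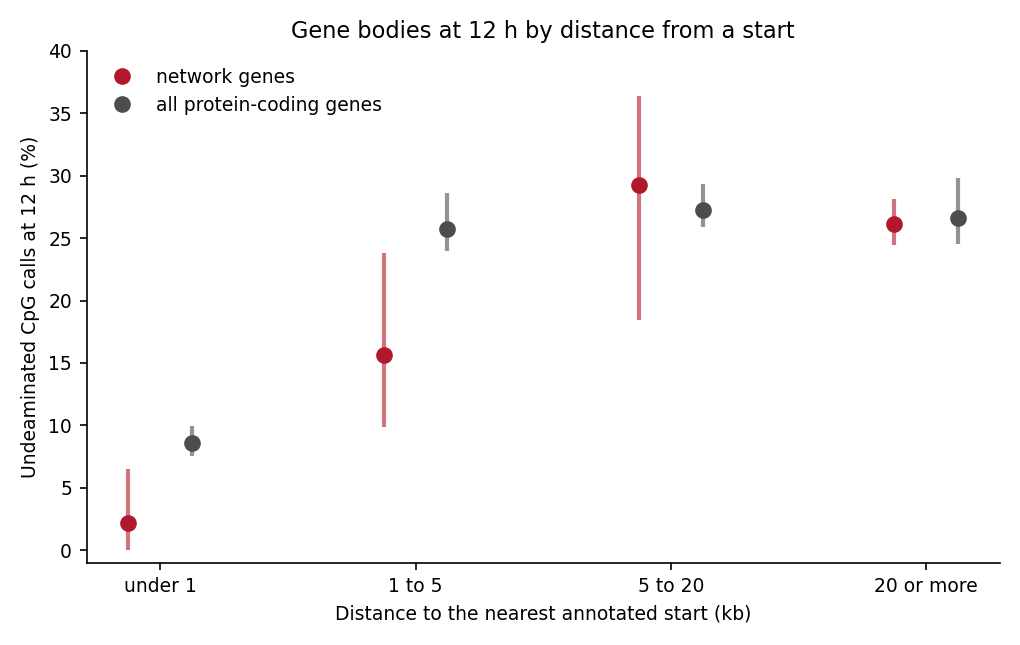
Undeaminated CpG calls (%) at 12 h by distance to the nearest start of any gene in the promoter table (kb), for bodies of the network genes and of all protein-coding genes; points are means over 3 libraries and lines run from the lowest to the highest library. Members stood at 2.17% under 1 kb and at 26.1% at 20 kb or more.

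CpG density of the read went with these levels. In members' bodies at 12 h, reads with 1, 2, 3, 4 to 5 and 6 to 10 CpG calls stood at 28.0% ± 5.44, 26.3% ± 3.47, 27.6% ± 3.98, 26.4% ± 3.10 and 24.2% ± 3.07 (SD, n = 3 each), and reads with 11 or more at 0.833% ± 1.44, or 2 of 237 calls on 17 reads. All protein-coding bodies stood at 26.1, 27.2, 27.7, 26.9 and 21.6% in the first 5 classes and at 5.67% ± 1.57 in the last. The class of 6 to 10 CpGs went the other way in bodies beyond the ends. There members stood at 15.5% ± 6.37 (20 of 126 calls on 18 reads) and all protein-coding genes at 26.1% ± 2.52. The class of 11 or more held 18.1% of members' body calls at 12 h and 9.71% of those of all protein-coding bodies. When each library's own levels by class were applied to the members' calls, the level came to 21.9% at 12 h, and observed minus computed was -0.0247 ± 2.65 points. For gene ends the same difference was -5.24 ± 5.04 points in members and -5.27 ± 0.319 points in all protein-coding genes. In the class of 6 to 10 CpGs, however, members' ends stood at 32.6% ± 11.1 (25 of 81 calls on 11 reads) and all ends at 9.07% ± 1.01. Without the 2 reads of Zfp42 the members' count in this class was 13 of 65 on 9 reads (20.0% of the calls), in 2 of the 3 libraries.

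The flanks, up to 20 kb outside the spans, had 3 undeaminated among 360 calls at 0 h, 31 among 373 at 6 h and 282 among 1210 at 12 h. Their 12 h level was 23.6% ± 1.52, or -0.512 ± 1.74 points from their libraries. Of the flank calls, 26.0% lay inside other protein-coding genes, so they are not a property of the network genes alone. With flanks added, all 37 members had an undeaminated call at 12 h, 21 had one at 6 h and 4 at 0 h. The widened spans held 2521, 934 and 811 calls at these times, so coverage differed as well. The same share over all genes was not counted, so these counts show nothing particular to the members.

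Untreated cells had few undeaminated calls in these genes. In the widened spans of all members there were 6 among 811 calls at 0 h, a mean of 0.704% ± 0.611 against a library mean of 1.13%. They were 1 call in the body of Nr5a2 and 1 in the flank of Tcf7l1, both in replicate B, 2 on 1 read beside Klf2 and the 2 on 1 read at the start of Sall1, both in replicate A. Replicate C had none in 236 calls.

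Of the core factors, the bodies of Pou5f1 (OCT4), Nanog and Sox2 together had only 22 calls at 12 h, 1 of them undeaminated, which is too few to place them. Sox2 had 0 of 15 on 1 read, which allows up to 20.0%. Widened by 20 kb the 3 genes had 0 of 32 at 0 h, 2 of 55 at 6 h, and 12 h gave 27 of 168 (16.1% ± 5.15 over libraries), with Pou5f1 at 13 of 63, Nanog at 7 of 50 and Sox2 at 7 of 55.

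The 16 genes of naive transcription factors had 3 of 319 body calls undeaminated at 0 h, 27 of 326 at 6 h, and 12 h gave 169 of 821 (21.1% ± 3.26 over libraries). Esrrb, a nuclear receptor (chr12:86361117-86521628), carried 163 body calls at 12 h. It had 0 of 14, 0 of 4 and 0 of 22 calls undeaminated in 0 h A, B and C, 2 of 19 and 3 of 57 in 6 h A and B, and 14 of 71, 20 of 76 and 6 of 16 in 12 h A, B and C. Every 12 h library (19.7 to 37.5%) was above both 6 h libraries (5.26 and 10.5%), and these were above all untreated ones. The 40 untreated calls together, all deaminated, still allow up to 7.50%, which is above the 5.26% of 1 of the 6 h libraries. The order of 0 and 6 h is therefore not secured by these counts. Esrrb had no call within 1 kb of its start. Along its 161 kb, the 12 h counts per 40 kb from the start were 15 of 36, 6 of 51, 14 of 52 and 5 of 24.

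Tcf7l1, which encodes the TCF3 repressor of network genes (chr6:72626371-72789045), was the best covered member. It had 0 of 46, 0 of 15 and 0 of 29 calls in 0 h A, B and C, 0 of 10 and 8 of 67 in 6 h A and B, and 26 of 84, 21 of 92 and 13 of 44 in 12 h A, B and C. The 12 h libraries (22.8 to 31.0%) did not overlap with the earlier ones. Nr5a2, the nuclear receptor LRH-1 (chr1:136842562-136960448), had 0 of 17, 1 of 1 and 0 of 15 at 0 h, 1 of 13 and 1 of 30 at 6 h, and 7 of 57, 14 of 50 and 4 of 11 at 12 h. The single call of 0 h B makes that library's level 100%, so its times overlapped.

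Gbx2 (chr1:89927962-89931176) was measured almost wholly on CpG-rich reads. Its body had 0 of 20 calls on 1 read at 0 h, 1 of 5 at 6 h and 3 of 69 on 5 reads at 12 h, with 3 of 54 in replicate A, 0 of 15 in replicate B and no call in replicate C. The reads averaged 15.6 CpGs per call, and the classes of such reads gave 6.86% over the libraries. The other naive factors with at least 10 calls at 12 h differed widely. Tfcp2l1, a CP2 family factor, had 11 of 39, Sall4, a zinc finger factor, 7 of 27, and Klf5 4 of 12, while Prdm14, which restrains FGF signalling, had 3 of 28 and the T-box factor Tbx3 3 of 34. Mycn had 0 of 48, which allows up to 6.25%, Klf4 0 of 18 and Foxd3 0 of 13, on 5, 2 and 1 reads. Zfp42 was the highest of the members with at least 10 body calls at 12 h, with 13 of 24, of which 9 of 10 came from 2 reads of replicate B.

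The LIF pathway had the highest pooled 12 h level of the 5 roles. Bodies of the receptor subunits Lifr and Il6st (gp130) and of Stat3, the factor they activate, together had 0 of 57 calls undeaminated at 0 h, 11 of 91 at 6 h, and 12 h gave 52 of 163. At 12 h these bodies averaged 30.3% ± 8.43 against 25.2% given by their classes of CpGs per read. Widened spans had 0 of 101, 15 of 122 and 101 of 322. Their 12 h mean was 31.5% ± 2.18 against 21.8% given by their classes. The Stat3 flank had 24 of 96 at 12 h on 16 reads, where its classes gave 14.5%. Widened spans of core and naive factors stood at 16.1 and 21.9% against 21.7 and 22.0%. Those of markers and chromatin proteins and of RNA-binding proteins stood at 20.7 and 27.5% against 21.6 and 25.0%. These roles were not tested against each other. Lifr (chr15:7090610-7197489) had 0 of 14, 0 of 9 and 0 of 7 at 0 h, 0 of 12 and 6 of 50 at 6 h, and 10 of 33, 9 of 27 and 2 of 9 at 12 h. Stat3 (chr11:100886806-100939594) had 0 of 12, 0 of 5 and 0 of 1 at 0 h, 3 of 7 and 1 of 6 at 6 h, and 13 of 28, 6 of 28 and 1 of 4 at 12 h. In Lifr the 12 h libraries were above the 6 h ones, while in Stat3 6 h A, with 7 calls, overlapped with 12 h. Il6st had 11 of 34 at 12 h.

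Among the 11 markers and chromatin proteins, bodies had 0 of 44, 4 of 93 and 52 of 244 calls undeaminated at 0, 6 and 12 h. Jarid2 (chr13:44730774-44921643) had 0 of 9, 0 of 7 and 0 of 7 at 0 h, 0 of 3 and 4 of 63 at 6 h, and 13 of 55, 15 of 50 and 5 of 31 at 12 h, so that the 12 h libraries (16.1% or more) did not overlap with the earlier ones. Its levels were uneven along the gene. From 120 to 160 kb downstream of the start, 0 of 45 calls were undeaminated at 6 h, and 12 h gave 4 of 58, and 46 of those 58 lay on reads with at least 6 CpGs. The neighbouring 40 kb segments had 10 of 23 and 8 of 21 at 12 h. Over the whole body, reads with under 6 CpGs had 27 of 77 undeaminated at 12 h and reads with 6 or more 6 of 59. The best covered genes did not all share this order. Esrrb had 39 of 131 and 1 of 32, and Nr5a2 25 of 108 and 0 of 10. Tcf7l1, with 50 of 200 and 10 of 20, and Lifr, with 18 of 63 and 3 of 6, went the other way. Of the others, Rif1, which acts in replication timing, had 6 of 38, the F-box gene Fbxo15 4 of 13, Dppa3 (STELLA) 3 of 11 and Fgf4 0 of 27.

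The 4 genes of RNA-binding proteins had 0 of 30 body calls undeaminated at 0 h, 0 of 48 at 6 h (which allows up to 6.25%), and 12 h gave 15 of 61. Trim71 (LIN41), a target of let-7 miRNAs (chr9:114511268-114564369), had 0 of 11 and 0 of 9 in 0 h A and B, 0 of 19 and 0 of 14 at 6 h, and 6 of 19, 4 of 12 and 0 of 8 at 12 h. Its 12 h replicate C equalled the earlier libraries, but 8 calls are too few to show that it lacked a rise. Lin28a, which blocks the maturation of let-7, had 4 of 12 and Lin28b, its paralog, 1 of 10 at 12 h.

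**Figure D3:**
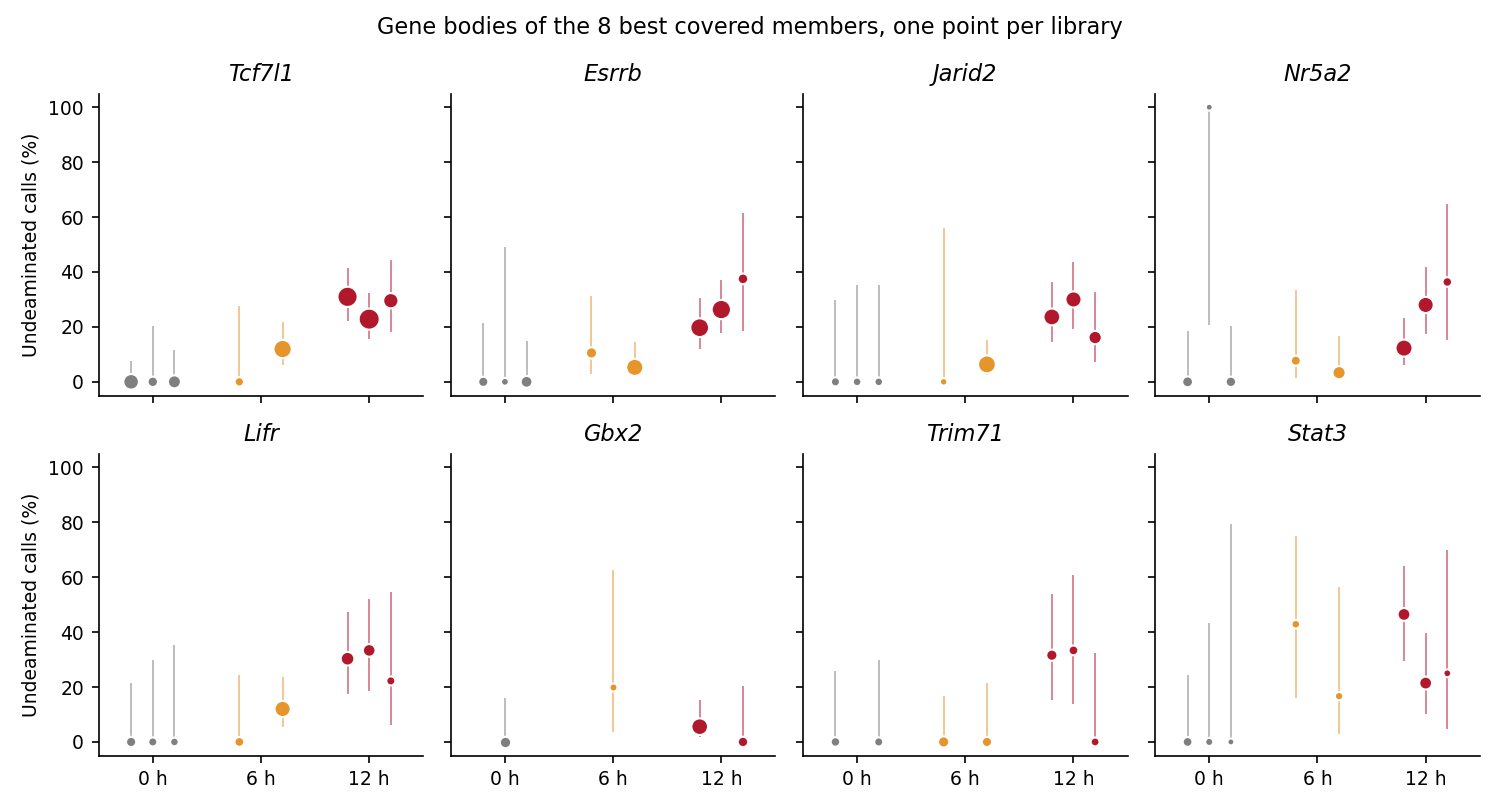
Undeaminated CpG calls (%) in the gene bodies of the 8 best covered members at 0, 6 and 12 h; each point is a library, its area grows with the number of calls, and lines are 95% Wilson intervals. Esrrb stood at 19.7 to 37.5% in the 12 h libraries, and the 100% of Nr5a2 at 0 h is a single call.

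The map of calls along the 5 best covered genes shows that undeaminated calls at 12 h were spread over each body. In Esrrb, of 44 reads with 2 or more body calls at 12 h, 19 were fully deaminated, 24 mixed and 1 fully undeaminated. The same counts were 31, 25 and 3 in Tcf7l1, 13, 15 and 2 in Jarid2, 20, 12 and 1 in Nr5a2, and 9, 7 and 0 in Lifr. Over all members' bodies, 254 reads with 2 to 5 calls at 12 h included 121 mixed and 9 fully undeaminated ones (3.54%, against 7.70% in all protein-coding bodies). The order was the other way for 41 reads with 6 or more calls, 14 mixed and 1 fully undeaminated (2.44%, against 0.629%). These shares pool the libraries, rest on few fully undeaminated reads in members and were not tested.

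**Figure D4:**
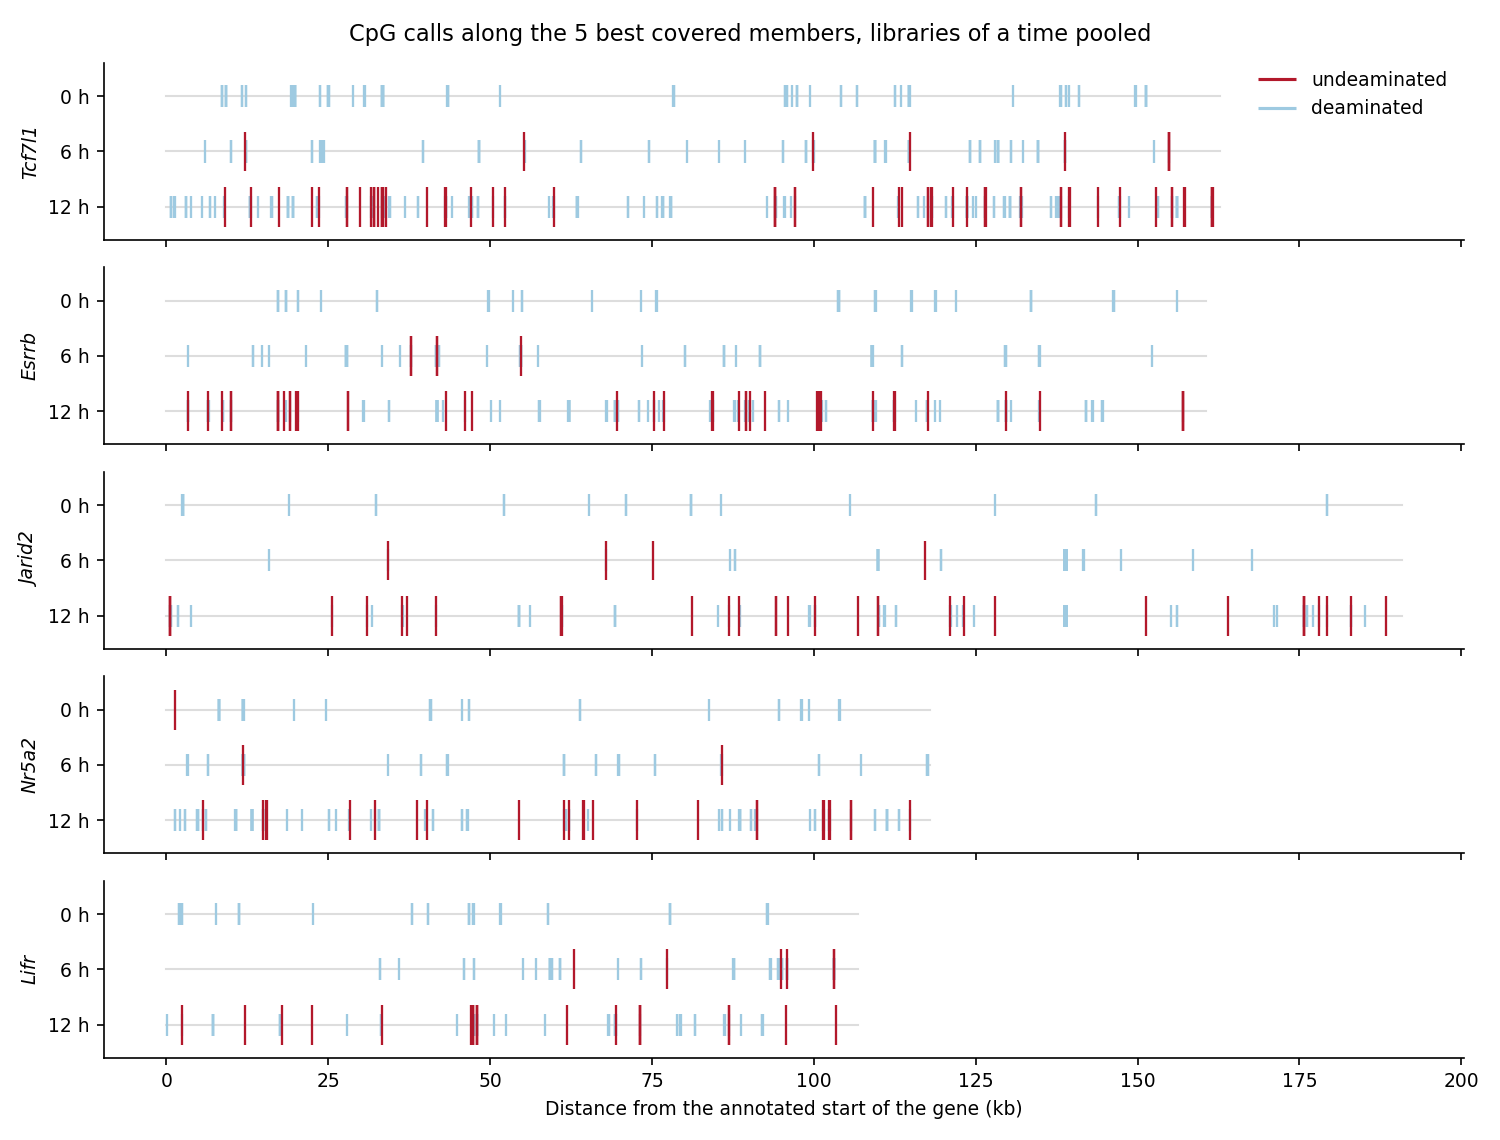
CpG calls along Tcf7l1, Esrrb, Jarid2, Nr5a2 and Lifr by distance from the annotated start (kb), with the libraries of each time pooled in a row; tall red ticks are undeaminated and short blue ticks deaminated calls. At 0 h one red tick is seen, in Nr5a2, and at 12 h red ticks run along all 5 bodies.

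Over the 25 members with at least 10 body calls at 12 h, 14 stood between 20 and 35%, 7 under 10% (5 of them at 0) and 1, Zfp42, above 35%, with the rest from 10 to 20%. The 9 genes whose calls lay on reads with 6 or more CpGs on average had 25 of 286 calls undeaminated at 12 h (median of genes 0%), and the 16 genes under 6 had 257 of 991 (median 27.3%). Across these 25 genes the 12 h level had a Spearman rho of -0.663 with the mean CpGs per read, as a description over genes that share libraries. The 95% Wilson intervals of the 5 best covered genes all overlapped: 14.8 to 29.4% in Nr5a2, 17.8 to 32.1% in Jarid2, 18.6 to 31.7% in Esrrb, 21.8 to 33.5% in Tcf7l1 and 20.8 to 42.1% in Lifr, so their order cannot be read. The remaining 12 members had 7 of 34 calls undeaminated at 12 h together, and 5 of them had no call there.

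**Figure D5:**
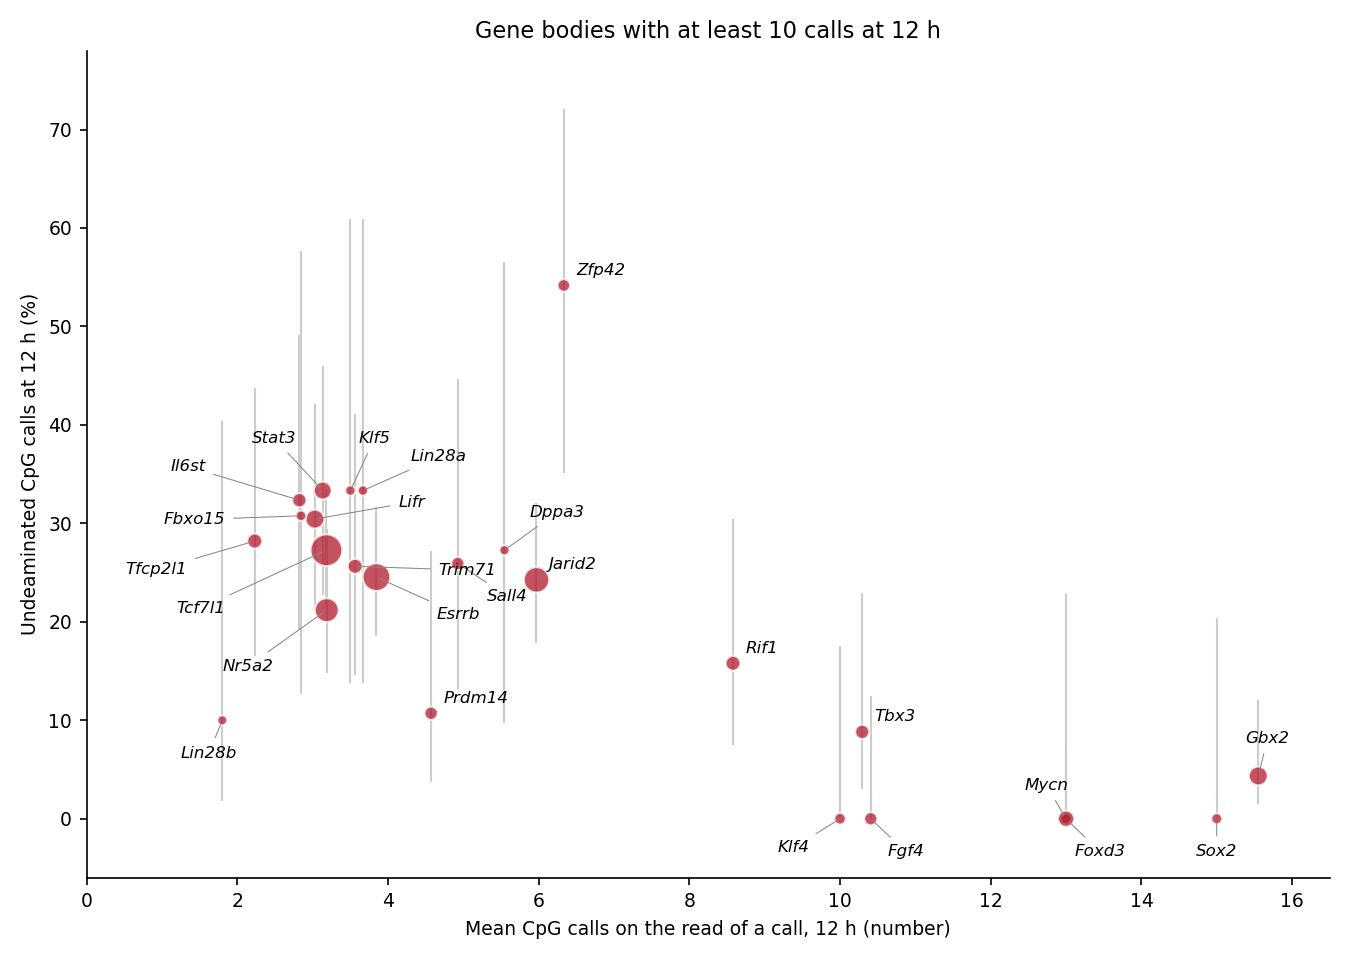
Undeaminated CpG calls at 12 h (%) against the mean number of CpG calls on the read of a call, for the 25 members with at least 10 body calls at 12 h; point area grows with the number of calls and lines are 95% Wilson intervals. The 5 genes at 0% average 10.0 or more CpGs per read, and Zfp42 stands alone at 54.2%.

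Gains of single genes were fitted with limma over every gene with at least 20, 20 and 40 calls at 0, 6 and 12 h and a call in every library, and p-values were adjusted over all genes tested by the Benjamini-Hochberg method. For bodies 1757 genes and 5 members passed these minima. Between 12 h and 0 h, 4 of the 5 members were called higher at an adjusted p under 0.05, where 93.1% of all genes tested were. How many of all genes had 12 h libraries apart from the earlier ones was not counted. Such gaps, given above for single members, are therefore not shown to be particular to them. The median gain was 24.4 points over the 5 members and 23.6 over all genes. Esrrb rose by 24.4 points (SE 3.05, limma adjusted p = 0.000181), Tcf7l1 by 27.3 (SE 2.68), Jarid2 by 24.4 (SE 3.18) and Lifr by 30.5 (SE 4.31), while Nr5a2 had 18.4 points with an SE of 14.1 (limma adjusted p = 0.235). All genes of a library share its rise, and an exact permutation test of 3 libraries against 3 cannot go below p = 0.1, so these p-values may be too small.

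At 6 h against 0 h, 0 of the 5 bodies were called (limma, 0.285% of all genes), and Tcf7l1, Esrrb and Lifr had an unadjusted p under 0.05, as had 24.1% of all genes tested. At 12 h against 6 h, 4 of 5 were called higher (69.4% of all genes), which fell to 2 of 5 without 6 h replicate B, where the share of all genes was 16.4%. Of the difference from the library's own rise, which asks whether a gene gained more or less than the genome, 0 of 5 were called in either direction (limma, 0.398% of all genes higher and 0.569% lower, with 0 members at an unadjusted p under 0.05). Esrrb deviated by 2.29 points (95% interval -4.07 to 8.65), Tcf7l1 by 4.76 (-1.62 to 11.1), Jarid2 by 1.88 (-6.30 to 10.1), Lifr by 8.35 (-2.05 to 18.7) and Nr5a2 by -3.71 (-35.4 to 28.0). All 5 intervals include 0, and the narrowest spans over 10 points, so deviations of a few points were not detectable at this depth.

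Widened spans let 5123 genes and 10 members into the test. All 10 members were called higher at 12 h than at 0 h (89.5% of all genes), 2 at 6 h than at 0 h (0.956%) and 6 at 12 h than at 6 h (58.0%). The call at 12 h against 0 h was lost for Gbx2 without 12 h replicate A (limma adjusted p = 0.138) and without weights (0.0637), and for Nr5a2 without 12 h replicate B (limma adjusted p = 0.121) and at a width of 10 kb (0.188). At 12 h against 6 h, 2 of the 10 were called without 6 h replicate B, where the share of all genes was 9.53%. The called pair at 6 h were Stat3, with 3 of 10 and 3 of 16 calls in 6 h A and B against 0 of 26, 0 of 10 and 0 of 11 at 0 h, and Sall4, with 4 of 21 and 6 of 16 against 0 of 8, 0 of 19 and 0 of 14. Their limma adjusted p of 0.0411 and 0.0493 lay close to the threshold. Neither was called when any single 0 h library was left out or with the quasi-binomial fit. In each of these settings 0% of all genes tested were called, so the loss was not particular to these genes. Of the deviation from the library's rise at 12 h, 0 of 10 were called (limma, 0.390% of all genes higher and 1.27% lower). Gbx2 lay lowest at -10.9 points (SE 3.07, limma adjusted p = 0.152), and at -1.70 when the level of its classes of CpGs per read was subtracted instead of the library level. Lifr at 9.94 and Stat3 at 6.07 were higher, and Gbx2 lower, at an unadjusted p under 0.05, as were 8.20% of all genes higher and 7.38% lower. The value of Stat3 depended on the width, with 14.7 points at 10 kb and 0.154 at 50 kb, while Lifr stood at 7.68 at 50 kb. The median deviation was 4.58 points over the 10 members and 0.153 over all genes. Only genes with enough calls entered, so these counts do not speak for the other 27.

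The 48 other genes of the pathway had 5 of 561 body calls undeaminated at 0 h, 24 of 554 at 6 h, and 12 h gave 324 of 1452, or 22.8% ± 1.69 at 12 h over libraries, close to the 21.9% ± 1.30 of the network genes. Bodies of LIF, BMP and WNT signalling stood at 28.4% ± 5.77, of the primed state and exit at 17.9% ± 2.31 and of other network factors at 22.0% ± 8.24. The 4 with the most body calls were Lef1, the DNA-binding partner of beta-catenin, with 32 of 117 at 12 h, the receptors Fgfr2 with 23 of 96 and Fgfr1 with 9 of 91, and Smad1, a transducer of BMP signals, with 12 of 77. Of 4 bodies tested, 3 were called higher at 12 h than at 0 h (limma, 93.1% of all genes tested), and of 14 widened spans 9 were (89.5%). For the deviation from the library's rise, 0 of the 4 bodies were called (limma, 0.398% of all genes higher and 0.569% lower). The same held for 0 of the 14 widened spans (0.390% higher and 1.27% lower).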

How the data were processed

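The deposited files hold CpG calls, one per cytosine and read. The values are call letters, undeaminated or deaminated, written by the Bismark methylation extractor 0.22.3, per the file headers. Trim Galore, Bismark 0.22.3 and GRCm38 are listed in the submitters' processing notes. Settings for trimming, alignment and duplicates: not given in the sources used here. Reads carry no molecular identifiers, and calls on one read are not independent, so Wilson intervals (95%) and floors (3 counts) cover counting error only.

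Groups and replicate letters came from the sample titles. Members were matched by symbol to RefSeq gene spans of GRCm38.p6, widened by 20 kb, with ends of 1 kb. These spans are not split into exons and introns. Members and lists were chosen with earlier results of these data known. Values per library are given for the 8 members with most body calls, counts for others with at least 10 at 12 h, and values for the 4 pathway genes with most body calls. Genes were fitted with limma 3.58.1 in R 4.3.3: level in percent, weighted by calls over the binomial variance of the library level, 1 factor of 3 groups over 8 libraries, Benjamini-Hochberg over all genes tested, threshold 0.05, checked on simulated data. Alternatives left out single libraries, or changed call minima, weights, model, widths, reads or runs. Letters were not used as pairs in the main fits. Gene residuals of libraries with the same letter were uncorrelated, but this check cannot settle whether they were paired. Genes had few calls per library, and the residuals of the 2 libraries at 6 h mirror each other.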

Additional observations from a re-analysis of the deposited data

How the results depend on the processing

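Coverage limits these results: 25 of the 37 genes had at least 10 body calls at 12 h, and single genes rest on few reads. No called result changed direction. Under at least 1 alternative, 12 uncalled differences of single genes and 3 untested differences from the libraries changed sign. Among them, bodies minus their libraries, -2.26 points as reported, and flanks minus theirs, -0.512 points, were positive with 1 call per read and in run 52, and the body gain of Nr5a2, 18.4 points, was -7.79 without weights. With 1 call per read, bodies stood at 26.2% at 12 h (0.963 points above their libraries), flanks at 25.4%, and bodies beyond the ends at 27.0% at 12 h and 1.01% at 0 h. Flanks of 10 kb stood at 20.6% (-3.57 points), bodies beyond ends of 2 kb at 25.8%, and the mean over members with at least 10 calls at 20.1%. The cause of these shifts was not tested.

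As means over libraries, unlike the summed calls given above by run, run 52 alone, with few calls, gave bodies of 0, 3.85 and 32.5% at 0, 6 and 12 h (8.08 points above the libraries), gene ends of 2.90% at 12 h (-21.6 points), flanks of 0, 0 and 25.9% (1.47 points), and bodies beyond the ends of 3.85% at 6 h and 41.8% at 12 h (17.3 points). Run 53 alone gave bodies of 1.54% at 0 h, flanks of 0% at 0 h and 11.02% at 6 h, and bodies beyond the ends of 0.980% at 0 h and 22.9% at 12 h. Run 54 alone gave bodies of 0% at 0 h and 20.4% at 12 h, flanks of 1.65% at 0 h, and bodies beyond the ends of 22.6% at 12 h. Leaving out 1 library moved bodies at 12 h between 21.1 and 22.3% and gene ends between 7.13 and 12.1%.

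Fewer or more genes entered the tests when the call minima changed. With minima of 10, 10 and 20 calls, 7 of 8 bodies were called at 12 h against 0 h (89.4% of all genes tested under that setting), 1 of 12 widened spans at 6 h against 0 h (0.774%) and 1 of 12 for the deviation (0.813%). With 40, 40 and 80 calls, 2 of 2 bodies were called at 12 h against 0 h (98.6%) and 2 of 2 against 6 h (85.8%), and 4 of 4 widened spans at 12 h (94.0%) and 0 of 4 at 6 h (3.19%) against 0 h. The 2 widened spans called at 6 h against 0 h became 0 with the replicate block, 0 without weights and 0 with the quasi-binomial fit (0% of all genes in each), 0 with 1 call per read (0.566%), 1 of 9 at 10 kb (0.758%) and 0 of 27 at 50 kb (1.09%). At 50 kb, 23 of 27 were called at 12 h against 0 h (92.6%), 15 of 27 against 6 h (62.0%) and 1 of 27 for the deviation (0.480%). Same-letter libraries had residual correlations of -0.0293 to 0.0275 over bodies, and the replicate block moved no other count by over 1.5 times.

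Without single libraries, the bodies called at 12 h against 6 h ranged from 2 (without 6 h replicate B, 16.4% of all genes) to 5, widened spans from 2 (without 6 h replicate B, 9.53%) to 7, widened spans at 6 h against 0 h from 0 to 2 (all genes 0 to 4.04%), and the widened deviation from 0 to 1 (without 12 h replicate C, 4.31%). A 6 h library left alone is assumed to vary like the other groups.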
